A study of Mus musculus with 2 samples.

Results

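The genes described here are 9 serum-response genes of mouse macrophages: Srf, which encodes serum response factor, the zinc-finger genes Egr1, Egr2 and Egr3, the corepressor genes Nab1 and Nab2, and the immediate early response genes Ier2, Ier3 and Ier5. They were taken from a fixed list of symbols, and all 9 were found among 55536 annotated genes, of which 22028 were protein coding. The cells were macrophages grown from the bone marrow of C57BL/6J mice, whose age and sex the labels do not give. They were given 100 ng/ml of lipid A, the part of lipopolysaccharide that Toll-like receptor 4 recognises, for 12 h, then 12 h without it, then the same dose again for 75 min. RNA bound to chromatin, which is rich in transcripts still being made, was freed of ribosomal RNA and sequenced in 2 libraries of this 1 condition, replicate 1 from 250 ng and replicate 2 from 500 ng of RNA. The labels number them as biological replicates with a sample entry each but a single donor entry, and do not say that the cultures were separate, so the spread between them may be technical. Annotated genes received 18388793 expected counts in replicate 1 and 17640464 in replicate 2. With no untreated or singly treated samples analysed here, the values are levels in restimulated cells and say nothing of a response.

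Serum response factor binds a short A/T-rich element, the CArG box, in the promoters of genes that are switched on within minutes of a growth or stress signal. At many of these genes it sits beside a ternary complex factor, an ETS-family protein that ERK phosphorylates, while at cytoskeletal genes it works with myocardin-related factors. EGR proteins are made in that first wave and bind GC-rich sites in later genes, and NAB1 and NAB2 bind EGR proteins and repress them, with NAB2 itself an EGR target. IER genes, named for their immediate early response, belong to the same early wave.

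Promoter windows from RefSeq (GRCm38.p6) ran from 250 bases before to 50 after a transcription start. They were used for 6 of the 9 genes, in 10 windows of which 5 belong to Egr2. No window of Egr1, Egr3 or Ier2 was searched, so whether these genes hold the motifs was not examined. The 10 windows were searched on both strands for the CArG box, the ETS site CCGGAA and the EGR site GCGNGGGCG. The cyclic AMP element TGACGTCA, the TATA box TATAAA and the kappaB site of NF-kB were searched for as well. The Srf and Egr2 windows are shown because they alone among the 6 genes hold a CArG box, the Nab1 window because it holds 3 EGR sites, and the Ier5 window because the most abundant of the 9 transcripts starts there. Capitals mark every match, and each window is read 5′ to 3′ on the strand of its gene.
Srf, chr17:46556113-46556412, minus strand: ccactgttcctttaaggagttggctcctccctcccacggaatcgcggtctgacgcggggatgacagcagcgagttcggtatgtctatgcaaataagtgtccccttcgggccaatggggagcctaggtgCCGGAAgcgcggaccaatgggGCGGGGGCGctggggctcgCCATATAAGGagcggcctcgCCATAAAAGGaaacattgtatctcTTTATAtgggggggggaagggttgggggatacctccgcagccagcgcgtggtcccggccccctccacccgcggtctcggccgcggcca
Egr2 at the start of isoform Egr2-201, chr10:67537619-67537918, plus strand: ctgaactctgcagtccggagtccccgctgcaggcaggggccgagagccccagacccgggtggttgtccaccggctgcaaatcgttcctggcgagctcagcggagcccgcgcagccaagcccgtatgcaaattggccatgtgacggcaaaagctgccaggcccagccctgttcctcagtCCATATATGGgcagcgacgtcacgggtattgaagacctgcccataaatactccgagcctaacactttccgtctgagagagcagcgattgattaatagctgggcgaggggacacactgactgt
Nab1, chr1:52500399-52500698, minus strand: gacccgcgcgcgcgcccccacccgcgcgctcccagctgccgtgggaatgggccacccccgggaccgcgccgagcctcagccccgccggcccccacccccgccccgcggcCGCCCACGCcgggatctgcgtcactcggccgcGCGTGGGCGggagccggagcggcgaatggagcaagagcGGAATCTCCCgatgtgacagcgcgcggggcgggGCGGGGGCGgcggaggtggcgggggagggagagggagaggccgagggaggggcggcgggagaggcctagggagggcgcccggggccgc
Ier5, chr1:155099587-155099886, minus strand: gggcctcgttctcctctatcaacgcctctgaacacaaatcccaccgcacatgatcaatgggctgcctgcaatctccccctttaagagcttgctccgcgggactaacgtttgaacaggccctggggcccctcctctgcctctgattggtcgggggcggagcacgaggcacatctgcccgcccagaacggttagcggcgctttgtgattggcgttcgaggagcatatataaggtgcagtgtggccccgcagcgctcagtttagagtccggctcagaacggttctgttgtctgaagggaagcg

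Srf carried 2 CArG boxes, CCATATAAGG at bases -82 to -73 and CCATAAAAGG at -62 to -53 from its start, with an ETS site at -122 to -117, an EGR site at -101 to -93 and a TATA box on the other strand at -38 to -33. In Egr2 the box CCATATATGG lay at -72 to -63 from the start of Egr2-201 and recurred in the 2 windows that overlap this one, and another, CCTTTTTTGG, lay at -72 to -63 from a start 303 bases further upstream, between a pair of overlapping ETS sites and another further downstream. The most distant of its starts held a kappaB site and no CArG box. A CArG box was present in 1.63% of 32851 promoter windows of this length, an EGR site in 5.55%, an ETS site in 14.9%, a kappaB site in 8.46%, a TATA box in 13.6% and the cyclic AMP element in 1.79%. Nab1 held EGR sites at -141 to -133, -109 to -101 and -38 to -30 and a kappaB site at -71 to -62 from its RefSeq start at 52500448. No annotated isoform of Nab1 begins there: Nab1-201 begins upstream at 52500679 and Nab1-205 downstream at 52500300. The Nab1 sites thus lie downstream of the start of Nab1-201 and upstream of that of Nab1-205. Ier3 held a kappaB site at -92 to -83, and neither the Nab2 nor the Ier5 window matched any of the 6 motifs. The cyclic AMP element was in none of the 10 windows. These are matches of letters and not measurements of binding.

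**Figure D1:**
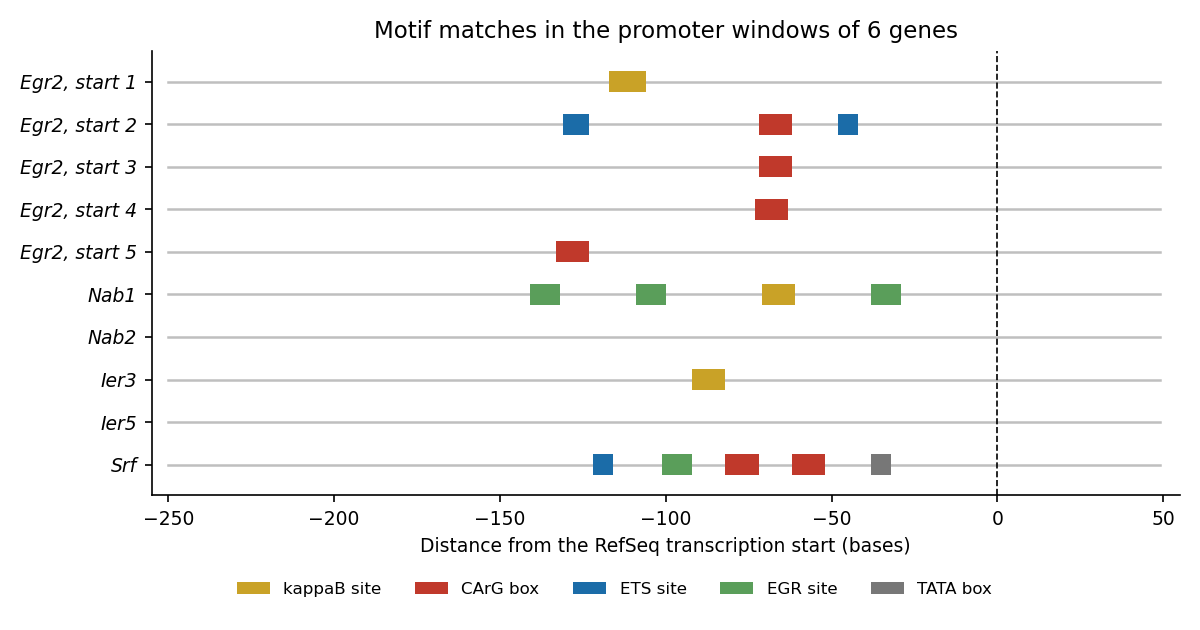
Motif matches in the 10 promoter windows, by distance in bases from the RefSeq transcription start (dashed line). Red marks are CArG boxes, which lie in 4 of the Egr2 windows and, as a pair, in Srf; the windows of Nab2 and Ier5 are empty.

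The 9 genes were transcribed at low to moderate levels. Levels are given in TPM, a share of all transcripts on a fixed scale that is corrected for transcript length. Their median was 11.5 ± 1.05 TPM (SD between the medians of the libraries, n = 2), against 7.99 TPM for the 9615 protein-coding genes that reached 1 TPM in either library. In both libraries, 8 of the 9 reached 1 TPM, where 40.1% of all protein-coding genes did, and 4 of the 9 reached 10 TPM, where 17.9% did. In RNA from many cells, a gene used by fewer cells and a gene with less RNA per cell cannot be told apart.

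Srf itself (ENSMUSG00000015605.6, chromosome 17, 46548329 to 46556175) had 4.53 TPM in replicate 1 and 5.17 TPM in replicate 2, from 133 and 137 counts. Its mean of 4.85 ± 0.453 TPM (SD, n = 2) lay above 37.6% of expressed protein-coding genes. The libraries were close to each other, and by its mean the gene that encodes the regulator stood 7th of the 9. By the alignment-free program, a second deposited quantification of the same reads, it had 9.27 ± 1.68 TPM and stood 6th, above Egr2. The noncoding gene Gm26904 spans it on the other strand without sharing an exon, and had 24.8 and 16.3 counts.

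Among the EGR genes, Egr1 (ENSMUSG00000038418.7), the prototype of the family, had 3.54 TPM in replicate 1 and 4.67 TPM in replicate 2, from 179 and 215 counts. Egr2 (ENSMUSG00000037868.15, chromosome 10, 67535475 to 67542188), a relative that also acts in nerve myelination, had 3.17 and 9.02 TPM from 120 and 375 counts. Its replicate 2 value was above both Egr1 values. Its replicate 1 value was below both, but above both by the alignment-free program (3.66 TPM, against 2.66 and 3.46 TPM for Egr1) and by posterior mean TPM (4.46, against 3.32 and 4.35 for Egr1). Egr3 (ENSMUSG00000033730.4, chromosome 14, 70077203 to 70082614), known for its part in muscle spindle development, was the lowest of the 9, at 0.76 and 1.09 TPM from 35 and 59 counts. It passed 1 TPM in replicate 2 and missed it in replicate 1, but by posterior mean TPM it passed in both, at 1.2 and 1.36. The fourth member of the family, Egr4, had 0 counts in both libraries, which allows up to 3 counts, or 0.163 and 0.170 CPM (counts scaled to the library total) in replicates 1 and 2.

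On the TPM scale the corepressor genes exceeded the EGR genes whose products they bind. Nab1 (ENSMUSG00000002881.14, chromosome 1, 52457294 to 52500679) had 24.2 TPM in replicate 1 and 22.8 TPM in replicate 2, from 707 and 688 counts. Nab2 (ENSMUSG00000025402.12, chromosome 10, 127660918 to 127668568) had 15.9 and 11.45 TPM, from 595.64 and 356.37 expected counts. In TPM, both libraries of each lay above both libraries of every EGR gene. In counts, Egr2 exceeded Nab2 in replicate 2, with 375 against 356.37. Nab2 was the only 1 of the 9 with an uncertain assignment of reads, a posterior SD of 7.50 and 5.32 counts. Its exons share 1050 bases with the antisense gene Gm16229 (65.4 and 30.6 counts), 151 with Nemp1 (57 and 46 counts) and 40 with the end of Stat6 (3259 and 2869 counts), all on the other strand. The labels and files do not say whether counting used strand, and without strand the reads of these stretches cannot be told apart.

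The 3 IER genes spanned 9.96 to 34.15 TPM over both libraries, above every EGR value. By posterior mean TPM this separation was lost, with 9.34 for Ier3 in replicate 1 and 10.2 for Egr2 in replicate 2. Ier5 (ENSMUSG00000056708.5, chromosome 1, 155096361 to 155099636), whose product acts on heat shock factor 1, had 27.31 TPM in replicate 1 and 34.15 TPM in replicate 2. Its 1414 and 1604 counts made it the highest of the 9, above 80.5% of expressed protein-coding genes. Ier2 (ENSMUSG00000053560.4, chromosome 8, 84661331 to 84662852), a nuclear early-response protein gene, had 15.4 and 20.6 TPM from 334 and 409 counts. Ier3 (ENSMUSG00000003541.6, chromosome 17, 35821684 to 35822923), a regulator of apoptosis that NF-kB also induces, had 9.96 and 13.1 TPM from 149 and 181 counts. All 3 were higher in replicate 2 than in replicate 1. Ier2 and Ier3 did not overlap each other, but did by the alignment-free program, at 10.7 and 14.5 TPM against 8.10 and 11.2 TPM.

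In descending order of mean TPM the genes were Ier5 (30.7 ± 4.84), Nab1 (23.5 ± 1.02), Ier2 (18.0 ± 3.68), Nab2 (13.7 ± 3.15), Ier3 (11.5 ± 2.23), Egr2 (6.10 ± 4.14), Srf (4.85 ± 0.453), Egr1 (4.11 ± 0.799) and Egr3 (0.925 ± 0.233) (SD, n = 2 each). Ier5 and Nab1, Nab1 and Ier2, Ier3 and Egr2, and Egr1 and Egr3 did not overlap between the libraries, though Ier3 and Egr2 did by posterior mean TPM. Ier2 and Nab2, Nab2 and Ier3, Egr2 and Srf, and Srf and Egr1 did overlap, so their order is not resolved by 2 libraries. The place of Nab1 rested on its isoforms: with counts divided by the length of the longest isoform it had 10.7 ± 0.0660 CPM per kilobase, behind Nab2 at 11.3 ± 3.76 and Ier2 at 16.2 ± 2.61. Nab1 was first by the alignment-free program at 25.6 ± 2.43 TPM and Ier5 second at 21.1 ± 3.49 TPM.

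**Figure D2:**
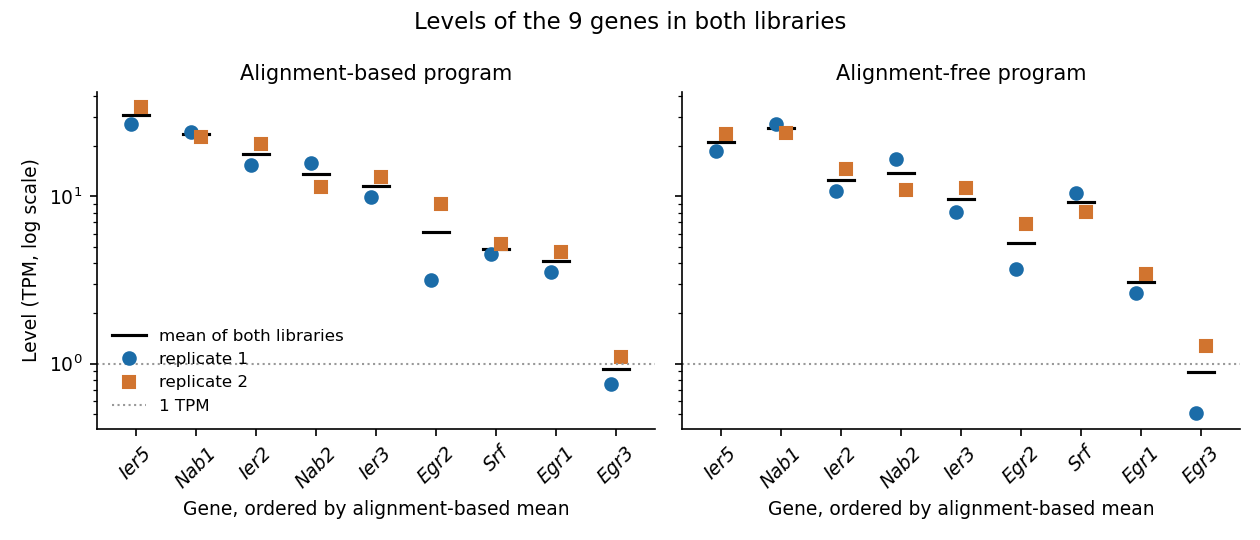
Level of each gene in TPM (log scale) in replicate 1 (circles) and replicate 2 (squares) by the alignment-based (left) and the alignment-free program (right), with the mean as a bar and 1 TPM as a dotted line. The replicates of Egr2 lie far apart, at 3.17 and 9.02 TPM in the left panel, and Srf stands higher in the right panel, at 10.5 and 8.08 TPM.

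Isoforms were examined because chromatin-bound RNA holds partly spliced transcripts. Only annotated isoforms could receive reads, so intron reads count solely where an isoform annotated as retaining that intron exists. Ier2 and Ier5 have a single exon and Ier3 has 1 intron of 109 bases, and each has 1 annotated isoform. Retained-intron isoforms are annotated for 3 of the 9 genes: Egr3, Nab1 and Srf. They held a median of 33.7% of the gene's TPM in these, against 44.5% over 6433 protein-coding genes at 0.5 TPM or more with such an isoform.

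For Egr3 the retained-intron isoform Egr3-202, a single exon of 3876 bases, held 46.1% of TPM in replicate 1 and 68.5% in replicate 2. It begins at 70078739, downstream of the coding starts at 70077203 and 70077314. How many of its reads lay in intron sequence was not measured. These shares came from 21.7 of 35 counts and 41.85 of 59.01 counts, with Wilson 95% intervals of 46.3 to 76.8% and 58.6 to 81.2% for the shares of counts. The coding isoform Egr3-204 took 19.7% and 25.0% of TPM and Egr3-201 took 19.7% and 6.48%. The intervals are wide and overlap, and at this depth no difference between the libraries was detectable. By the alignment-free program Egr3-202 had 60.8% in replicate 1 and 28.4% in replicate 2, so the order of the libraries turned round.

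For Nab1 and Srf the retained-intron share of TPM came from few counts on short isoforms. Nab1-202, of 514 bases, held 34.9% and 32.4% of the TPM of Nab1 in replicates 1 and 2 but 5.29% and 4.59% of its counts, 37.4 of 707 and 31.6 of 688. The coding isoforms Nab1-205 and Nab1-201 differ at their 5′ ends and changed order between the libraries, with 24.0% and 17.8% of TPM for Nab1-205 and 13.7% and 27.7% for Nab1-201, while the shorter Nab1-204 had 27.4% and 22.1%. Nab1-205 led in both libraries by the alignment-free program, with 28.0% and 31.2% for Nab1-205 and 6.19% and 11.4% for Nab1-201. In Srf, the coding isoform Srf-201 held 67.6% and 67.1% of TPM and 93.3% and 93.2% of counts. Its retained-intron isoforms Srf-203 and Srf-204 (637 and 595 bases) held 32.4% and 30.9% of TPM together, from 8.96 and 9.06 counts. The alignment-free program gave these isoforms 76.6% and 67.0% of the TPM of Srf, from 39.8 and 40.3 counts on Srf-203 and 50.8 and 16.5 on Srf-204.

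Both Egr1 isoforms are coding, and the shorter Egr1-202 held 88.1% of TPM in replicate 1 and 87.8% in replicate 2, with Egr1-201 at 11.9% and 12.2%. These shares differed by less than 1 percentage point between the libraries. Of the 7 coding isoforms of Egr2, 4 had 0 counts in both libraries, among them Egr2-205 and Egr2-206, which begin at the distant upstream starts. Egr2-201, whose promoter window with a CArG box is printed above, held 85.7% of the counts of Egr2 in replicate 1 and 88.3% in replicate 2, or 102.79 and 331.3 counts. Egr2-203, which starts within the gene, held 12.9% and 11.7%. The 427-base isoform Egr2-204 took 18.4% of TPM in replicate 1 from 1.75 counts and had 0 counts in replicate 2, so the share of Egr2-201 was 69.9% and 87.1% by TPM. The alignment-free program gave Egr2-201 39.6% in replicate 1, behind Egr2-204 at 46.0% from 10.7 counts, and 80.5% in replicate 2.

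For Nab2 the programs disagreed on which coding isoform led. Nab2-201 held 48.2% and 40.0% of TPM and Nab2-202 held 51.8% and 51.2% by the alignment-based program in replicates 1 and 2. By the alignment-free program Nab2-201 held 76.2% and 74.7%, and Nab2-202 held 12.4% and 13.0%. They overlap over nearly their whole span, and their split is given as uncertain.

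**Figure D3:**
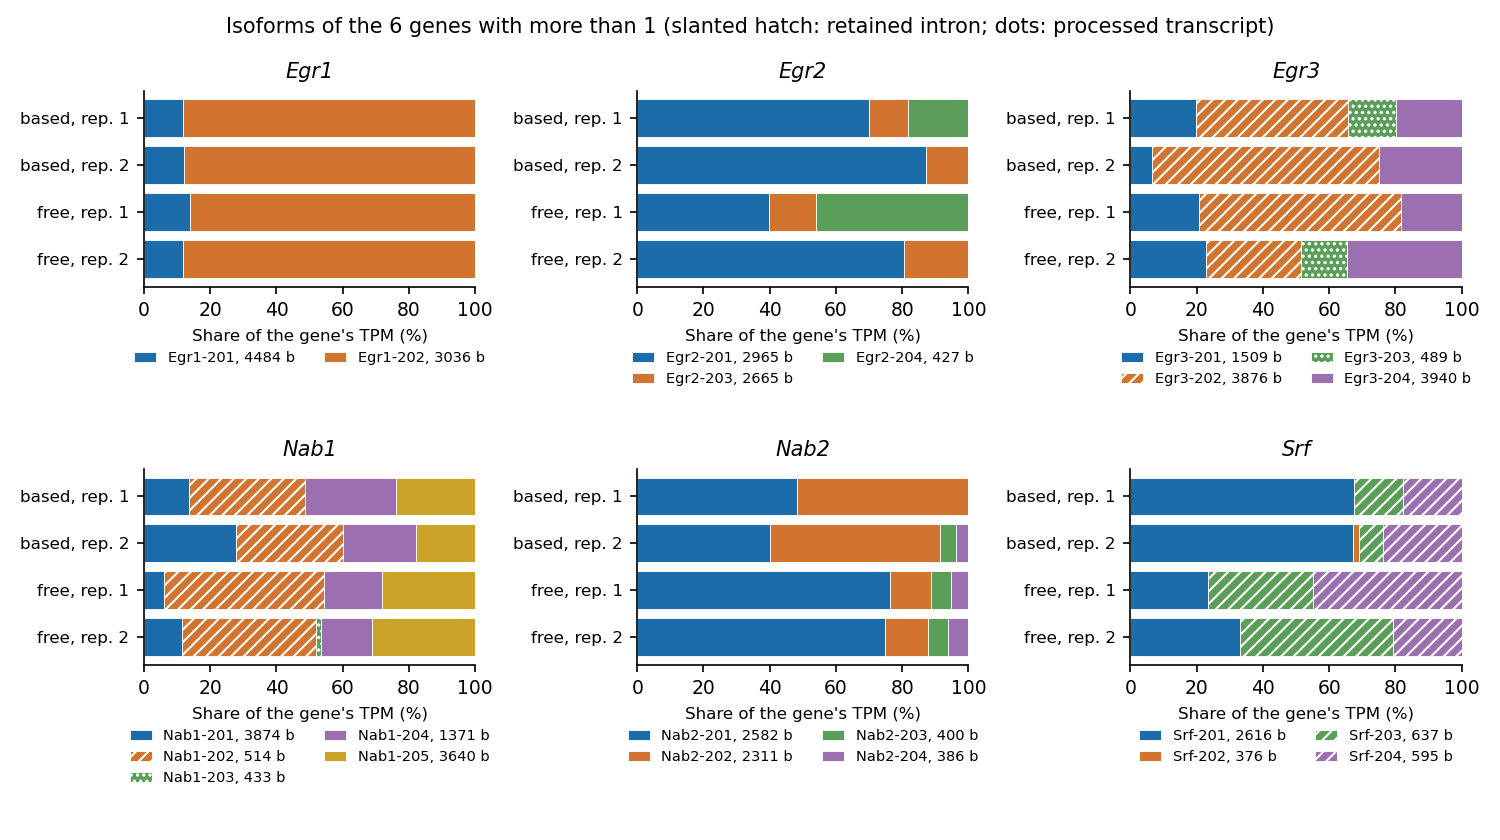
Share of each gene's TPM (%) held by its isoforms in the 6 genes with more than 1, with a bar per library and program; slanted hatching marks retained-intron isoforms and dots processed transcripts without an open reading frame. Egr1 is divided alike in all 4 bars, whereas Srf is mostly Srf-201 by the alignment-based program and mostly retained-intron isoforms by the other.

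The libraries were then compared gene by gene, on rounded counts scaled by TMM, as the log2 ratio of replicate 1 over replicate 2. They are 2 samples of 1 condition, so these ratios measure spread and not an effect of lipid A. Genes had to have 10 or more counts in both libraries, and of the 13247 that did, 24.1% differed 1.5-fold or more, and 3 of the 9 members did. In 2 of these, Egr2 and Egr3, replicate 2 was higher, as in 11.8% of all genes, and in Nab2 replicate 1 was higher, as in 12.3%. In 8 of the 9 members the ratio was below 0, that is, higher in replicate 2, where 50.3% of all genes were; by the alignment-free counts 6 of the 9 were, since Nab1 and Srf turned round. The median ratio of the members was -0.40 and that of all tested genes 0.00 on the log2 scale.

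Egr2 stood out, with 120 counts in replicate 1 and 375 in replicate 2. Its log2 ratio was -1.78 (95% counting interval -2.09 to -1.48), which is 3.43-fold higher in replicate 2. A difference at least this large was found in 0.717% of all tested genes and in 0.799% of the 3631 genes whose mean count lay within 2-fold of its own. Egr3 had a ratio of -0.89 (-1.53 to -0.26) from 35 and 59 counts, and 15.3% of genes of like count differed as much. Egr1 had -0.40 (-0.69 to -0.10), under the 1.5-fold limit, so the members of the family had unlike ratios.

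The corepressor Nab2 was the 1 member higher in replicate 1, with 596 and 356 rounded counts and a ratio of 0.61 (0.42 to 0.80). It cleared the limit narrowly, at 1.53-fold. Whether its overlap with genes of the other strand bears on the counts depends on whether counting used strand, and was not tested. Nab1 had a ratio of -0.09 (-0.25 to 0.06) and Srf -0.18 (-0.53 to 0.18), both intervals spanning 0. Ier2 (-0.43), Ier3 (-0.41) and Ier5 (-0.31) had ratios near each other, and each counting interval lay below 0. Differences at least as large were common, in 37.4%, 38.7% and 50.4% of all tested genes in that order. Measured by TPM with a pseudocount of 0.1, Egr2 alone stayed past 1.5-fold (-1.48), with Egr3 at -0.47 and Nab2 at 0.47.

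Markers of the cells also moved between the libraries. Of 8 macrophage markers, all reached 1 TPM in both libraries, where 40.1% of all protein-coding genes did. Their summed level was 1152 TPM in replicate 1 and 794 TPM in replicate 2. Adgre1 alone had 497 and 193 TPM of these sums. Cd14 (52.1 and 82.4 TPM) and Msr1 (251 and 307 TPM) were higher in replicate 2, both named after their values were seen. By TMM-scaled counts, 5 of the 8 markers were 1.5-fold or more higher in replicate 1 and 1 in replicate 2. Over all tested genes, 12.3% and 11.8% were. The part of these markers in the ratios of the 9 genes was not tested. Markers of other cells were near 0 by the alignment-based program: 3 T cell markers summed to 0.09 and 0 TPM, 5 neutrophil markers to 0.45 and 0.72 TPM and 4 fibroblast markers to 0.38 and 0.87 TPM in replicates 1 and 2. Cd3e, Cd3g, Mpo, Elane, Ly6g and Pdgfra had 0 counts in both. By the alignment-free program the T cell markers summed to 16.1 and 20.8 TPM, of which Cd3d alone had 15.5 and 20.1 TPM, and the neutrophil and fibroblast lists to between 1.46 and 3.89 TPM.

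**Figure D4:**
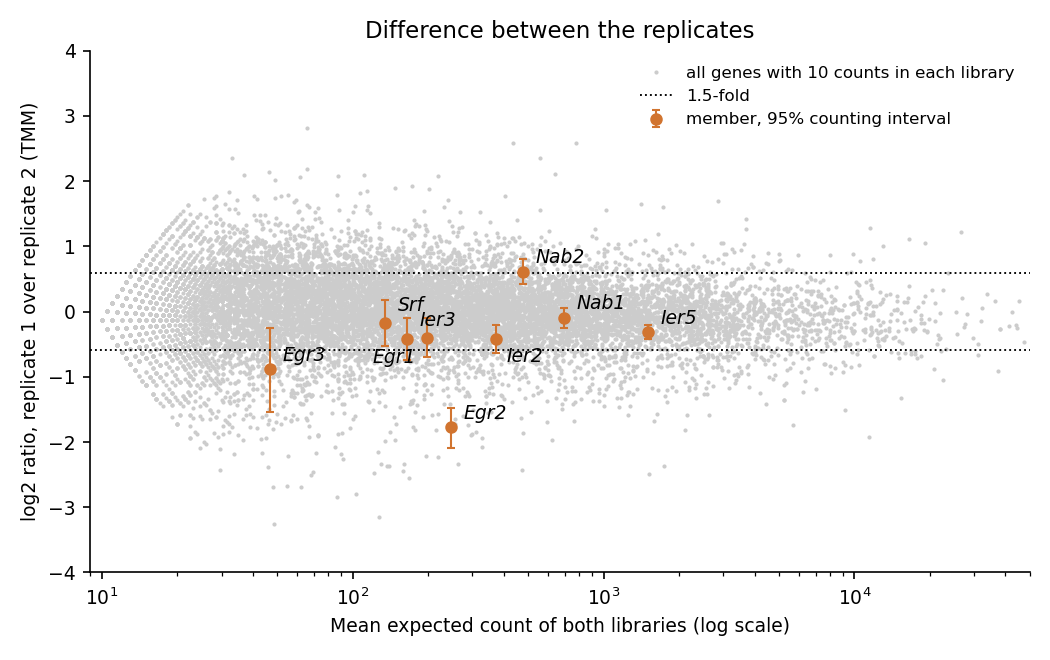
Log2 ratio of replicate 1 over replicate 2 after TMM scaling against the mean count (log scale) for all 13247 tested genes (grey) and the 9 members (orange, with 95% counting intervals); dotted lines mark 1.5-fold. Egr2 lies at -1.78, clear of the other members, and Nab2 at 0.61 is the member on the upper side.

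The deposited programs were set side by side because they treated the same reads differently. The ratio of alignment-based over alignment-free counts was 0.882 ± 0.00382 for Ier5 and 0.849 ± 0.00184 for Ier2, the single-exon genes (SD, n = 2). It was 0.806 ± 0.0202 for Egr1, 0.780 ± 0.0354 for Egr2, 0.732 ± 0.0649 for Egr3 and 0.705 ± 0.0119 for Ier3, whose leading coding isoforms by TPM have 1 or 2 introns. It was 0.616 ± 0.0250 for Nab1, 0.615 ± 0.0156 for Nab2 and 0.573 ± 0.0750 for Srf, whose leading coding isoforms have 5 or 6 introns. The ratio was thus lowest in the 3 genes with most introns and highest in those with none. Among expressed protein-coding genes the median ratio was 0.775 over 141 genes with 1-exon isoforms only and 0.574 over 9215 others. By the alignment-free program, Egr1 had 2.66 TPM in replicate 1 and 3.46 TPM in replicate 2, Egr2 had 3.66 and 6.84 TPM, and Egr3 had 0.504 and 1.27 TPM. Ier2 had 10.7 and 14.5 TPM and Ier3 had 8.10 and 11.2 TPM. These 5 were higher in replicate 2 by both programs, as was Ier5, at 18.6 and 23.5 TPM by the alignment-free one. Nab1 (27.3 and 23.9 TPM), Nab2 (16.8 and 10.9 TPM) and Srf were higher in replicate 1 by the alignment-free program. On TMM-scaled alignment-based counts, 50.3% of all tested genes were higher in replicate 2. On the TPM scale Srf moved furthest, with 4.53 and 5.17 TPM by the alignment-based program against 10.5 and 8.08 TPM by the alignment-free one, a mean log2 ratio of -0.91 ± 0.39 of values with 0.1 TPM added.

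**Figure D5:**
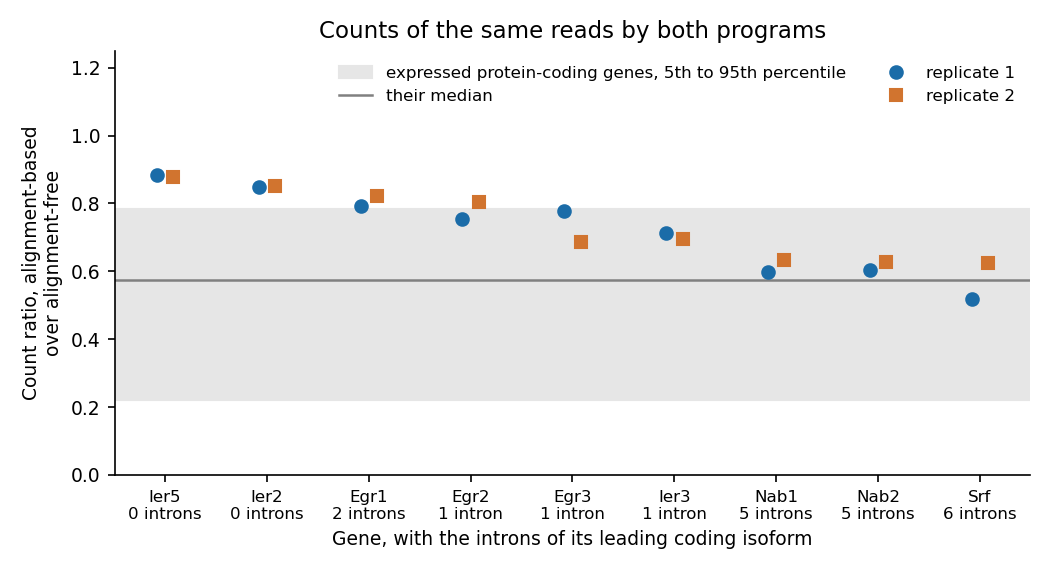
Ratio of alignment-based over alignment-free counts of each gene in replicate 1 (circles) and replicate 2 (squares), with the number of introns of its leading coding isoform; the band holds the 5th to 95th percentile of expressed protein-coding genes and the line their median of 0.576. Ier5 and Ier2, without introns, and Egr1, with 2, lie above the band in both replicates, and Nab1, Nab2 and Srf lie near the line.

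Genes that feed into or answer to serum response factor were read from lists chosen with earlier results of these libraries known. Of 6 cofactors, 5 were at 1 TPM or more in both libraries and 3 at 10 TPM or more. Over all protein-coding genes these shares were 40.1% and 17.9%, which also apply to the lists below. Mrtfa, the myocardin-related factor that actin holds in the cytoplasm, led with 75.9 TPM in replicate 1 and 80.1 TPM in replicate 2, followed by the ternary complex factor gene Elk4 with 26.9 and 38.9 TPM. Both were above Srf in each library. Myocd, the muscle-specific founder of the family, had 0 counts in both libraries. On TMM-scaled counts none of the 5 detected cofactors differed 1.5-fold between the libraries, where 24.1% of all tested genes did. By TPM Mrtfb did, with 7.07 TPM in replicate 1 and 12.8 TPM in replicate 2, a gene named after its values were seen.

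Of the 10 genes of the ERK route, all were at 1 TPM or more in both libraries and 8 at 10 TPM or more, with a median of 33.6 ± 4.95 TPM. Map3k8, the kinase that connects Toll-like receptors to ERK, was highest, with 56.3 TPM in replicate 1 and 35.4 TPM in replicate 2, then Map2k1, an activator of ERK, at 35.6 and 48.6 TPM. The ERK1 gene Mapk3 was lowest at 7.19 and 9.33 TPM. Within this list 1 gene was 1.5-fold or more higher in replicate 1 and 2 were in replicate 2. Over all tested genes, 12.3% and 11.8% were. The largest ratio in the list was that of Rps6ka5 at -1.41, a gene picked after its values were seen. It encodes a kinase that phosphorylates CREB and histone H3 downstream of ERK and p38.

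Of 15 other known targets of serum response factor, 10 were at 1 TPM or more in both libraries and 8 at 10 TPM or more, with a median of 50.6 ± 16.2 TPM. The cytoskeletal genes Actb, for beta-actin, with 487.55 TPM in replicate 1 and 379.33 TPM in replicate 2, and Flna, for filamin A, with 286 and 133 TPM, were highest by mean TPM. In replicate 2 Flna was below Mcl1 (214 TPM), Dusp1 (143 TPM) and Actg1 (142 TPM), named after their values were seen. By the alignment-free program Mcl1, at 248 and 281 TPM, was above Flna in both libraries, at 217 and 101 TPM. The matricellular genes Ccn1 and Ccn2, strongly induced in fibroblasts, had 0 counts in both libraries. Of 11 with enough counts, 1 was 1.5-fold or more higher in replicate 1, Flna at 1.01, where 12.3% of all tested genes were. In replicate 2, 4 were higher by as much, where 11.8% of all tested genes were. They were Dusp1 at -1.58, Nr4a1 at -1.43, Tpm1 at -0.71 and Zfp36 at -0.66, these 4 named after their values were seen. Fos, the best known target, stood at 6.41 and 8.09 TPM, near Egr2 in level and also named afterwards. Of the further genes listed for an EGR or IER name, Ier3ip1, which is named for binding IER3, had 7.06 and 7.88 TPM. Ier5l had 9 counts in replicate 1 and 0 in replicate 2.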

How the data were processed

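Expected counts, TPM and FPKM per gene and isoform were deposited by the authors for each library, made from alignments to the mm10 transcriptome with GENCODE M21, per the deposited description files. Estimated counts and TPM of the alignment-free tables were made by the authors directly from the reads. Other deposited columns used were lengths and, as other values, posterior means. The deposited tables also give each isoform's percent of its gene; shares here were recomputed from TPM or counts. Sources used here do not give program names, versions or strand setting. Annotated genes held 18388793 and 17640464 expected counts in replicates 1 and 2, and the 26345 entries that name no annotated gene, left out, held 0.305% and 0.262%.

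Gene models were those of M21. Counts were rounded and scaled by TMM (edgeR 4.0.16); DESeq2 1.42.0 size factors were an alternative, and the ratio step was tested on simulated data. Intervals are exact binomial or Wilson, and cover counting error only. With 1 group there is no contrast and no p-value. Members and lists were chosen with earlier results of these data known. Named were all 9 members, isoforms with at least 10% of a gene's TPM by either program, and the 2 highest and the lowest gene of each pathway list; exceptions are marked, and markers are named where at 0 or where 1 gene carried a sum. A marker list of another cell type is not reported here.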

Additional observations from a re-analysis of the deposited data

How the results depend on the processing

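The median level of 11.5 TPM was 9.96 to 11.45 TPM with a replicate left out, 9.64 TPM by the alignment-free program, 42.6 TPM over protein-coding genes and 26.2 TPM without small structured RNAs, 2 settings that change only the denominator. It was 10.4 as FPKM, 10.4 per length of the longest isoform, 8.82 TPM without Nab2 (both added after seeing the data) and 10.8 by posterior means. The members at 1 TPM in both libraries were 8 by the alignment-free program, and all 9 over protein-coding genes or without small structured RNAs. By posterior means Egr3 also passed this limit in both, at 1.2 and 1.36 TPM. At 10 TPM in place of 1, 4 members remained. Past 1.5-fold was 1 member by TPM with a pseudocount of 0.1 and 1 with a pseudocount of 1, and 1 member was past 2-fold. The retained-intron median was 6.67% of counts and 44.6% of alignment-free TPM. The median program ratio of 0.15 on the log2 scale was 0.23 to 0.30 with a replicate left out, 0.097 with a pseudocount of 1 and -0.45 for counts, where library totals also differ. The cause of these shifts was not tested. Of 54 alternative levels of single genes, leaving out a replicate not counted, 24 moved by less than their SD and 30 by more. The 30 include every gene under the 2 settings that change only the denominator, which rescale all levels. Of 54 alternative ratios, 50 stayed within their counting interval. Egr2 passed 1.5-fold under all 6 alternative ratios. No paired analysis was possible because there is 1 group. Depth limits Egr3 most, with 35 and 59 counts.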
